A study of Mus musculus with 18 samples.

Results

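The heavy-chain variable (Ighv) genes were taken as every row of the gene table whose symbol began with Ighv and a digit, which gave 185 rows among 55491. RNA was measured by bulk poly(A) RNA-Seq of B cells from the spleen and from Peyer's patches (PP, the lymphoid tissue of the small intestine wall) in a mouse model of egg allergy. Mice had been sensitized to ovalbumin (OVA, an egg white protein) and were then given OVA-carrying nanoparticles (OVA NPs), free OVA or vehicle, and the comparisons ask how B cells differed between these treatments and between tissues. All 18 libraries came from female BALB/cJ mice of 10-12 weeks that had received 1 mg alum with 20 µg OVA intraperitoneally on days 0 and 14. Intravenous treatment followed on days 28 and 42, and RNA was taken on day 44. Spleen PBS and PP PBS received 100 µL PBS, Spleen Soluble OVA and PP Soluble OVA received 100 µg OVA in solution, and Spleen OVA NPs and PP OVA NPs received 2.5 mg OVA NPs, with 3 libraries in each of the 6 groups. There were no unsensitized mice among these groups. The dose of OVA NPs is a mass of particles, whereas that of soluble OVA is a mass of protein. At the OVA loading stated for the particles, both doses carry the same amount of OVA. B cells were enriched by negative magnetic selection, so no marker of their own was used to select them. Spleens underwent red cell lysis whereas PP were digested with collagenase, so the tissue and its preparation cannot be told apart.

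Every B cell builds its antibody heavy chain by joining a variable segment to a D and a J segment, and the variable segment encodes most of the antigen-binding surface. The segment a clone has chosen stays with all its descendants, so the relative use of Ighv segments in a pool of B cell RNA reflects which clones are present and how much heavy-chain message each makes. Germinal centers, where B cells divide and mutate their variable segments, are a standing feature of PP because of gut antigens, while the spleen holds mostly resting B cells. Some segments have named histories: Ighv11-2 and Ighv12-3 are used by B-1a cells that bind phosphatidylcholine, Ighv7-1 gives the T15 antibodies to phosphorylcholine, Ighv1-72 dominates the response of some strains to a nitrophenyl hapten, and Ighv5-2 is common in early repertoires.

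All 185 genes lay on the minus strand of chromosome 12, between positions 113572927 and 116010093 of GRCm38. The GENCODE M21 annotation of that build lists 113 as variable genes, 70 as variable pseudogenes and 2 under another type, and their symbols fall into 16 families. Mature segments are single exons that often differ at few positions. The exons below are of the genes on which the results turn: the pair that differed most in total between the tissues, the segment of B-1a cells, and the segment most used in the spleen. Each is the last 300 bases of the V exon (exon 2 of 2 in the annotated transcript) read 5′ to 3′ from the GENCODE M21 transcript, with capitals for the longest stretch it shares with another Ighv gene. The stretch of Ighv4-1 is at chr12:113948282-113948581, that of Ighv4-2 at chr12:114013144-114013443, that of Ighv11-2 at chr12:114048241-114048540 and that of Ighv1-14 at chr12:114646572-114646871.
Ighv4-1: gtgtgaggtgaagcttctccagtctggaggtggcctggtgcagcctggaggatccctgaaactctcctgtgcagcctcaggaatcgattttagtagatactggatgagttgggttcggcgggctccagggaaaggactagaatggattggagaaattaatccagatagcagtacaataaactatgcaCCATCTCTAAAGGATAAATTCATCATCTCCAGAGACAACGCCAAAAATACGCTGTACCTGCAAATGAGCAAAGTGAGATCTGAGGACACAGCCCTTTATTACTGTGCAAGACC
Ighv4-2: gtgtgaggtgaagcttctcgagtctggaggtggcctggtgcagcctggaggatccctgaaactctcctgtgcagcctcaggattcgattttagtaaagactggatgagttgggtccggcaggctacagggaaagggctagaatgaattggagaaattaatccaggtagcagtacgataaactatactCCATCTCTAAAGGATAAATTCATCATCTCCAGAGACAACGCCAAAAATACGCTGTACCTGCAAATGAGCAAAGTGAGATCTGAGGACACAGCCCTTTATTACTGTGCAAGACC
Ighv11-2: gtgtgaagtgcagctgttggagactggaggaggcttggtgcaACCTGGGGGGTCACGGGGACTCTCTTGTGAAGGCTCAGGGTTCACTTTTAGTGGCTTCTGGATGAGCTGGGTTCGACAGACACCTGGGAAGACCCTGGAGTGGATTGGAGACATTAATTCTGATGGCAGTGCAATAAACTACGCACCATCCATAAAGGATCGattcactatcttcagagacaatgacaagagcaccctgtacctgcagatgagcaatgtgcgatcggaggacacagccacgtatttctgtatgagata
Ighv1-14: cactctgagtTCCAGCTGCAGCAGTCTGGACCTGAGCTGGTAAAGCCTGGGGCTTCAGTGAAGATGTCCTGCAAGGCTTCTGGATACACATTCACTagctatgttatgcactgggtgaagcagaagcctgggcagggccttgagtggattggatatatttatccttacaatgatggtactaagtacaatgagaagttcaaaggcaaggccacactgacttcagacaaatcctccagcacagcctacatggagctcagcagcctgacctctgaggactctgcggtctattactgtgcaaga
Ighv4-1 and Ighv4-2, the only members of their family, were identical at 294 of 307 aligned positions (95.8%) and shared a run of 113 bases at the 3′ end. Ighv11-2 shared a run of 162 bases with Ighv11-1, which had no count in any library, and Ighv1-14 shared 86 bases with Ighv1-83. Ighv4-2 and Ighv1-14 are annotated as pseudogenes in this reference, which comes from C57BL/6 and not from the BALB/cJ mice studied. Whether reads placed at a gene came from it or from a BALB/cJ segment of similar sequence was not tested. The authors' counting divided reads that matched several genes between them, so values of near-identical members are uncertain individually.

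Reads at Ighv genes were few. Library totals ranged from 14177253 to 30052297 expected counts, and the 185 Ighv genes together received 2727 to 5945 of them, or 0.0148% to 0.0280% of a library. No count fell on 58 members in any library, 45 of them pseudogenes, and another 48 never exceeded 9 counts. A count in all 18 libraries was found for 59 genes, and 30 had at least 10 counts in each library. The B cell label was checked with 5 defining genes (Ms4a1, Cd79a, Cd79b, Pax5 and Cd22), which summed to 6311 to 7564 CPM (counts scaled to a common library size) in the spleen and 4644 to 5844 CPM in PP. A panel of 5 epithelial genes summed to 7.11 to 9.54 CPM in the spleen and 149.8 to 679 CPM in PP, with Krt20 at 0 in each spleen library, and mitochondrial genes took 2.82% to 3.41% of counts in the spleen and 4.97% to 9.80% in PP. Their part in the differences between tissues was not tested. In such bulk samples fewer cells using a segment and less RNA per cell cannot be told apart.

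The use of the family was concentrated in few genes. The 15 most used held 63.3% of Ighv counts on average over the 18 libraries, and annotated pseudogenes held 14.4%. Scaled for transcript length, Ighv4-1 had the highest mean level of 45.8 CPM per kilobase, followed by Ighv1-14 at 40.9, Ighv4-2 at 29.5, Ighv2-5 at 26.3, Ighv5-4 at 26.3 and Ighv2-9 at 21.7 CPM per kilobase. These means pool 6 groups that differ strongly for the Ighv4 pair, so they order the genes over the series and not within a tissue. The rest of the 15 were Ighv14-3, Ighv9-3, Ighv2-2, Ighv5-17, Ighv1-66, Ighv11-2, Ighv1-9, Ighv10-1 and Ighv5-6, with mean levels of 11.0 to 19.2 CPM per kilobase. Within single libraries Ighv1-14 was the most used gene in 8 of 9 spleen libraries and Ighv2-5 in the remaining one, Spleen OVA NPs replicate 1. Ighv4-1 was the most used gene in 8 of 9 PP libraries and Ighv1-14 in the remaining one, PP Soluble OVA replicate 1.

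The difference between tissues was led by the Ighv4 pair. Ighv4-1 was 2.66 ± 0.31 log2 units (SE) higher in PP than in spleen under PBS, 2.00 ± 0.36 higher under soluble OVA and 2.13 ± 0.17 higher under OVA NPs, and Ighv4-2 rose alongside. Its CPM in the 3 spleen libraries were 6.03, 6.39 and 3.98 under PBS, 3.93, 7.41 and 4.89 under soluble OVA, and 7.28, 11.1 and 8.87 under OVA NPs. The PP libraries had 48.2, 26.1 and 27.5 CPM under PBS, 12.8, 26.3 and 25.3 under soluble OVA, and 43.2, 38.7 and 33.0 under OVA NPs. No PP library overlapped the spleen range, and the PP library nearest to it was PP Soluble OVA replicate 1. By edgeR's quasi-likelihood test with Benjamini-Hochberg adjustment over all genes tested, the adjusted p was 5.96e-04 under PBS, 0.00382 under soluble OVA and 2.80e-05 under OVA NPs. P-values here measure the spread between libraries labelled as biological replicates.

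Ighv4-2 showed the same separation at lower levels. Spleen libraries had 4.81, 2.57 and 3.12 CPM under PBS, 1.89, 2.62 and 2.15 under soluble OVA, and 5.50, 6.70 and 5.86 under OVA NPs. PP libraries had 23.9, 18.3 and 17.2 CPM under PBS, 5.01, 13.3 and 16.3 under soluble OVA, and 21.5, 23.5 and 18 under OVA NPs. Within each treatment the tissues did not overlap, although PP Soluble OVA replicate 1 lay below all 3 Spleen OVA NPs libraries. The differences of 2.52 ± 0.24, 2.38 ± 0.44 and 1.85 ± 0.15 log2 units all passed edgeR's test (adjusted p of 3.12e-05, 0.00284 and 1.90e-05). Because the exons are so alike, the sum of both genes is the safer quantity, and it took 3.52% to 7.69% of Ighv counts in spleen libraries and 9.56% to 36.1% in PP libraries.

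**Figure D1:**
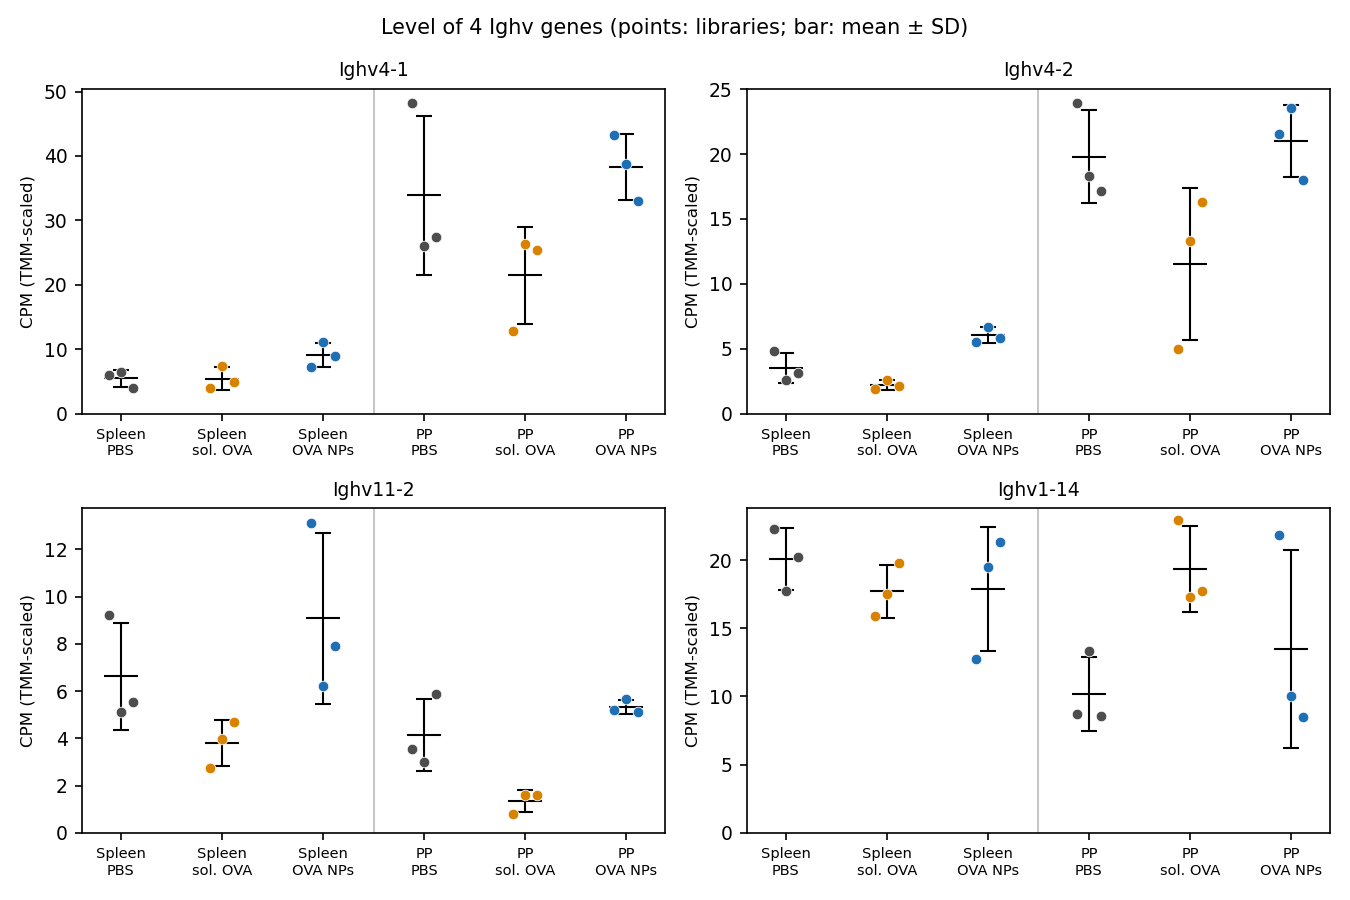
Level of Ighv4-1, Ighv4-2, Ighv11-2 and Ighv1-14 in CPM (vertical axis, TMM-scaled) for each of the 18 libraries (points), by tissue and treatment, with the mean and SD of each group as bars. Within each treatment every PP library lay above the spleen libraries for both Ighv4 genes, and Ighv11-2 was lowest in PP Soluble OVA at 0.805 to 1.61 CPM.

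Other segments that were higher in PP were rare in the spleen. Under PBS, 6 of 59 tested Ighv genes were called higher and 13 lower in PP, a called share of 32.2% against 45.6% of all genes tested (25.5% higher and 20.1% lower). Calls needed a log2 change beyond 0.25 in either direction with an adjusted p below 0.05. For 7 of these 19 calls fewer than all 3 libraries of the lower group reached the minimum of the filter on low counts (10 in a library of median size), so the gene entered the test through the higher group alone, which favours a difference, and its counts are given in place of a fold. Ighv1-11 had 4, 2 and 5 counts in Spleen PBS and 73, 73 and 30 in PP PBS. Ighv3-5 had 4, 3 and 9 counts in Spleen PBS and 59, 28 and 36 in PP PBS. Ighv1-63 had 8, 11 and 14 against 94, 20 and 34 counts, and the annotated pseudogene Ighv1-73 had 19, 11 and 8 against 23, 24 and 34. The groups did not overlap for any of these 4 genes, but entry through PP alone favours this, so it adds no support. Ighv1-63 and Ighv1-73 are identical at 96.7% of aligned exon positions and may share reads, while Ighv1-63 and Ighv1-11 are identical at 80.7%.

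The segments called lower in PP under PBS included Ighv2-9-1, Ighv7-1, Ighv1-82, Ighv1-18 and Ighv5-6. Ighv7-1, the T15 segment, had 1.78, 1.06 and 1.22 CPM in Spleen PBS and 0.333, 0.440 and 0.205 CPM in PP PBS, which are 41, 26 and 27 counts against 8, 6 and 4. Ighv2-9-1 had 20, 26 and 24 counts against 3, 2 and 6, and Ighv1-82 had 50, 44 and 27 against 9, 7 and 10. These 3 passed the filter through the spleen alone. Ighv1-18 fell by 1.09 ± 0.34 and Ighv5-6 by 1.08 ± 0.22 log2 units with both groups above it (edgeR adjusted p of 0.0211 and 0.00262). Ighv1-14, the leading spleen segment, had 22.3, 17.7 and 20.2 CPM in Spleen PBS and 8.71, 13.3 and 8.56 CPM in PP PBS. Its fall of 0.98 ± 0.17 log2 units also passed (edgeR adjusted p = 0.00100). Over the 59 tested genes the median difference was -0.32 log2 units, beside 0.01 over all genes.

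The other treatments gave fewer and partly different calls between tissues. Under soluble OVA, 10 of 58 tested Ighv genes were called (5 higher and 5 lower in PP), against 51.1% of all genes (26.7% higher and 24.3% lower). Ighv7-3 was lower at -1.80 ± 0.35, Ighv11-2 at -1.51 ± 0.36, Ighv1-54 at -1.10 ± 0.29 and Ighv10-1 at -1.01 ± 0.31 log2 units. Ighv1-15, also called lower, had 18, 17 and 35 counts in the spleen and 5, 9 and 8 in PP. Ighv1-11, called higher, had 2, 5 and 4 counts in the spleen and 14, 19 and 48 in PP, and Ighv3-5 had 10, 5 and 3 against 13, 24 and 46. These 3 of the 10 calls passed the filter through a single tissue. Ighv14-3 was higher by 0.84 ± 0.28. Under OVA NPs, 18 of 61 were called (8 higher and 10 lower), against 37.1% of all genes (22% higher and 15.1% lower). Ighv1-11 had 7, 1 and 2 counts in the spleen and 134, 96 and 32 in PP, Ighv1-63 had 2, 13 and 8 against 85, 183 and 94, Ighv3-5 had 8, 8 and 9 against 180, 40 and 103, and Ighv1-73 had 16, 11 and 10 against 98, 40 and 47. These 4 again passed the filter through PP alone, as 6 of the 18 called genes did through one tissue. Ighv14-3, called higher in PP under soluble OVA, was here at -1.13 ± 0.36. Each of these Ighv14-3 calls was lost in 4 of 6 fits that left out 1 library, and the soluble OVA call also with all 18 libraries in one fit. Ighv1-71, Ighv3-8, Ighv5-6 and Ighv1-82 were lower as well. In each tissue comparison the called share of Ighv genes was below that of all genes, which were mostly more abundant.

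Ighv4-1, Ighv4-2, Ighv1-11 and Ighv3-5 were called higher, and Ighv1-54 lower, in PP under all 3 treatments. Ighv1-11 and Ighv3-5 passed the filter on low counts through PP alone under each treatment. This favours a difference and the keeping of a call, so their repeated calls add no support. Altogether 13 of the 60 Ighv genes tested under at least 2 treatments (21.7%) were called under at least 2, against 42.7% of all genes. Other genes among these 13 also passed the filter through a single tissue under some treatments. The 3 comparisons use separate libraries. Leaving out any single library kept the calls of the Ighv4 pair in each of them, whereas those of Ighv1-54 were lost in 3 of 6 such fits under PBS and 4 of 6 under OVA NPs, and those of Ighv1-11 and Ighv3-5 in 3 and 4 of 6 under soluble OVA.

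**Figure D2:**
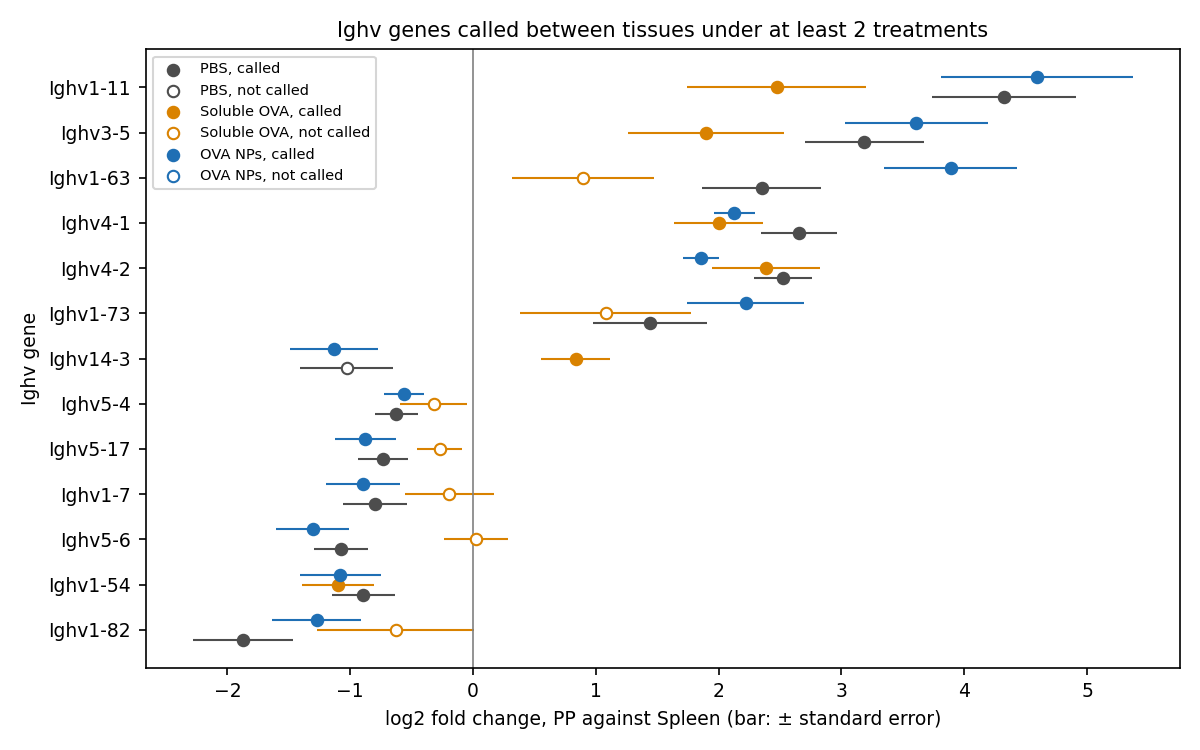
Log2 fold change of PP against Spleen (horizontal axis) with its standard error for the 13 Ighv genes called under at least 2 treatments (vertical axis), with filled points for called values and open points for the rest. Ighv4-1 and Ighv4-2 lay between 1.85 and 2.66 under all 3 treatments, and Ighv14-3 lay on opposite sides under soluble OVA and OVA NPs, each call being lost in 4 of 6 fits that left out 1 library. Folds of Ighv1-11, Ighv3-5, Ighv1-63 and Ighv1-73 rest on low spleen counts.

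Summed by family, 4 families each took over 5% of Ighv counts, with 93 genes in Ighv1, 11 in Ighv2, 2 in Ighv4 and 22 in Ighv5. Ighv4 took 5.22% ± 1.42 (SD, n = 9) of Ighv counts in the spleen and 23.8% ± 7.20 (n = 9) in PP. An exact two-sided permutation test within treatments gave p = 2.5e-04, the smallest it can give, and 6.67e-04 after adjustment over the 4 families. Ighv1 took 33.1% ± 2.20 in the spleen and 26.8% ± 3.93 in PP (exact permutation p = 5.0e-04, adjusted 6.67e-04), and Ighv5 took 15.6% ± 1.68 and 10.8% ± 2.58 (exact permutation p = 5.0e-04, adjusted 6.67e-04). Ighv2 took 17.5% ± 1.20 and 15.2% ± 3.16 (exact permutation p = 0.0275, adjusted 0.0275).

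Shares sum to a fixed total, so the rise of Ighv4 lowers the others by arithmetic. With the Ighv4 pair left out of the total, Ighv1 took 34.9% ± 1.96 of the remaining counts in the spleen and 35.2% ± 3.78 in PP (exact permutation p = 0.84), and Ighv2 took 18.4% ± 1.15 and 19.9% ± 3.59 (exact permutation p = 0.211). Both differences were then opposite in sign and not detectable. Ighv5 remained lower in PP, at 14.1% ± 2.27 against 16.5% ± 1.71 (exact permutation p = 0.013, adjusted 0.0173). Among smaller families Ighv14 took 3.52% to 7.52% of Ighv counts in spleen libraries and 2.17% to 9.11% in PP libraries, and Ighv11, which is Ighv11-2 alone in these counts, took 1.84% to 6.59% and 0.433% to 2.98%.

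**Figure D3:**
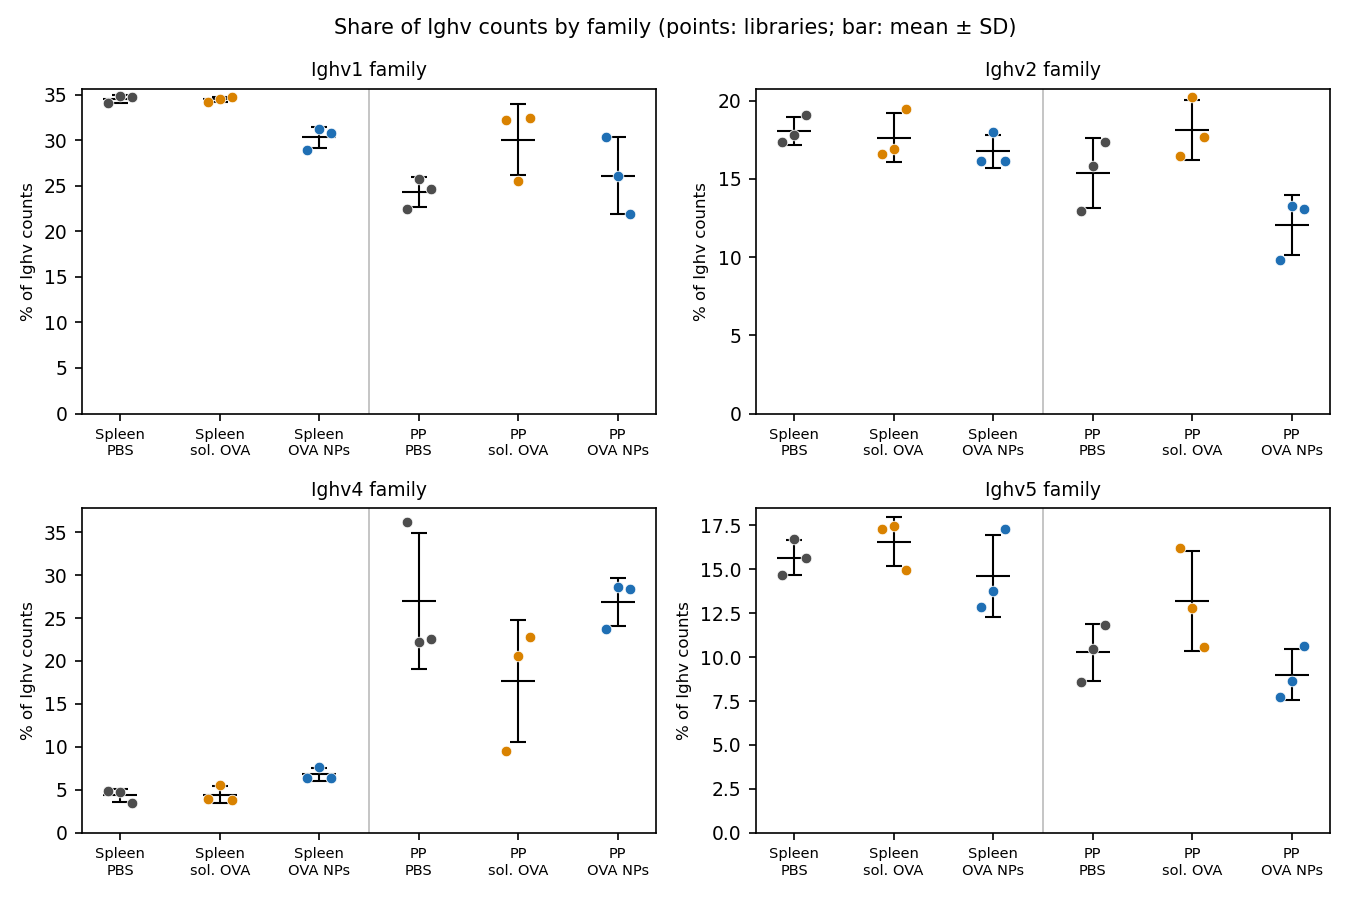
Share of Ighv counts in percent (vertical axis) held by the Ighv1, Ighv2, Ighv4 and Ighv5 families in each of the 18 libraries (points), with the mean and SD of each group as bars. Ighv4 lay between 3.52% and 7.69% in spleen libraries and between 9.56% and 36.1% in PP libraries, with PP Soluble OVA replicate 1 the lowest in PP.

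Use was also more uneven in PP. The effective number of genes (the exponential of the Shannon entropy, which equals the number of genes if all were used alike) was 41.3 ± 1.01 (SD, n = 9) in the spleen and 31.3 ± 3.70 (n = 9) in PP. Spleen libraries ranged from 40.3 to 43.0 and PP libraries from 25.5 to 35.1, so they did not overlap (exact permutation p = 2.5e-04, adjusted 0.0015 over 12 single-value tests). The most used gene held 9.46% ± 1.19 of Ighv counts in the spleen and 15.9% ± 3.73 in PP (exact permutation p = 2.5e-04, adjusted 0.0015). Without the Ighv4 pair, an alternative chosen after the values were seen, the effective number was 39.5 ± 1.11 in the spleen and 37.5 ± 5.81 in PP (exact permutation p = 0.209, adjusted 0.502). The most used of the remaining genes held 9.97% ± 1.16 and 10.6% ± 3.61 (exact permutation p = 0.482, adjusted 0.772). A difference in evenness between tissues was thus not detectable without these 2 genes.

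With the pair left out, the lowest effective numbers were those of PP Soluble OVA, at 32.8, 31.0 and 27.2, while the other 6 PP libraries had 38.6 to 45.4. Averaged over both tissues, soluble OVA was lower than PBS, at -4.93 (exact permutation p = 0.03, adjusted 0.072) and OVA NPs were higher than soluble OVA by 6.10 (exact permutation p = 0.04, adjusted 0.096). Neither passed after adjustment. In the spleen alone the groups overlapped, at 39.2, 39.7 and 40.3 under PBS, 38.6, 40.7 and 38.7 under soluble OVA, and 38.4, 41.5 and 38.7 under OVA NPs. The share of the most used remaining gene was 13.6%, 16.9% and 13.9% in PP Soluble OVA. Averaged over both tissues, this share was lower with OVA NPs than with soluble OVA, at -4.49 percentage points (exact permutation p = 0.005, the smallest possible, adjusted 0.015). These tests took spleen and PP libraries as independent, which the labels do not settle. The pair was left out after the values were seen. Each adjusted p without it takes the place of a planned value among the 12 tests, so the other tests without the pair are not counted. With all genes counted, none of the effective numbers or most used shares differed between treatments (adjusted p of 0.54 to 0.87 by the exact permutation test).

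**Figure D4:**
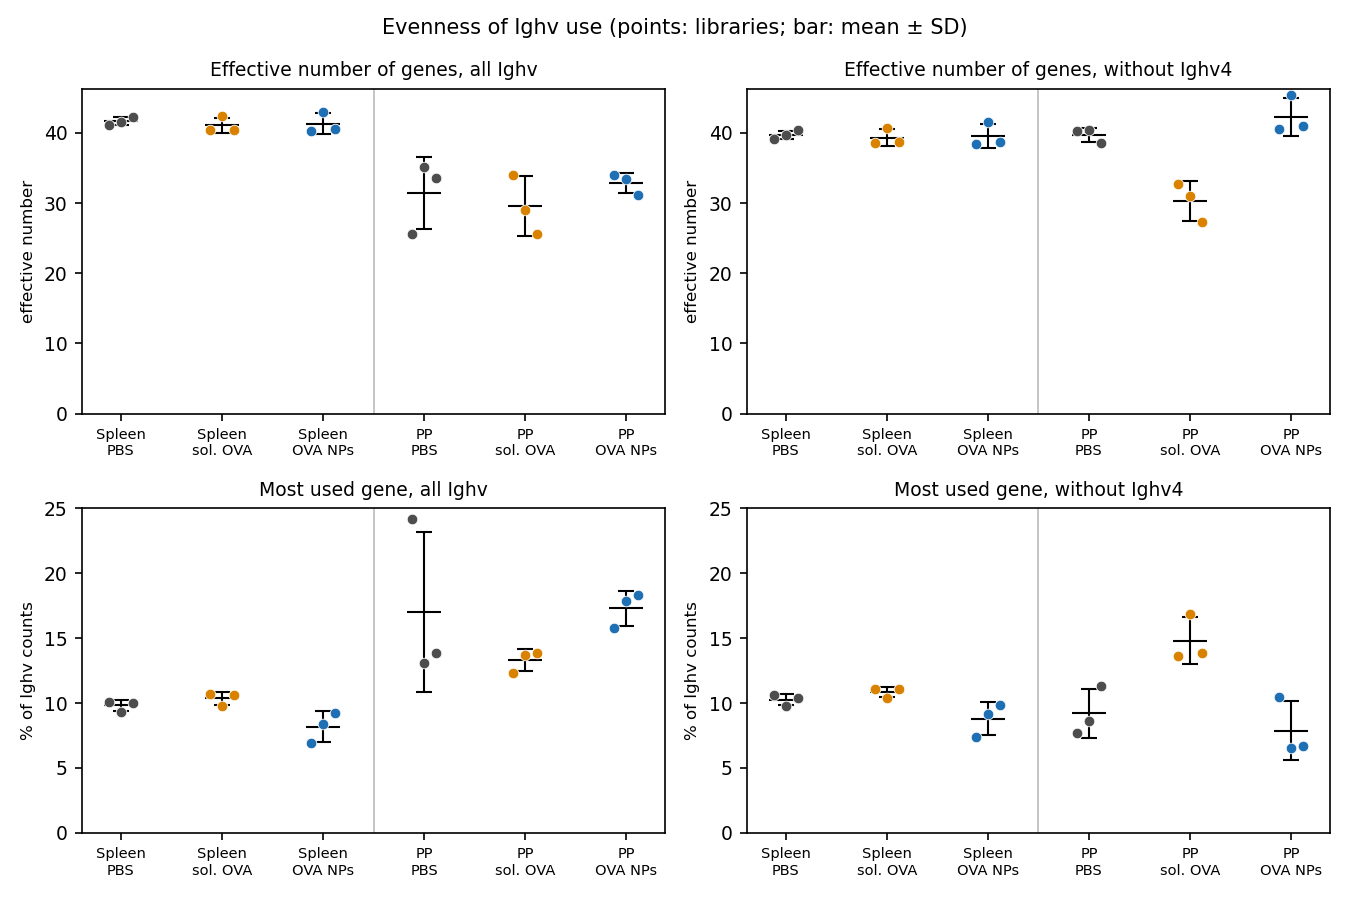
Effective number of Ighv genes and share of the most used gene in percent of Ighv counts (vertical axes) in each of the 18 libraries (points; bars are group mean and SD), with all Ighv genes on the left and without the Ighv4 pair on the right. With all genes the tissues did not overlap in effective number (25.5 to 35.1 in PP and 40.3 to 43.0 in spleen), and without the pair they did.

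Position along the locus gave a similar picture. The 62 members nearest the D segments held 55.9% ± 1.89 (SD, n = 9) of Ighv counts in the spleen and 63.9% ± 3.62 in PP. Both Ighv4 genes are among these 62. Without them the rest held 53.5% ± 1.61 and 52.6% ± 3.26 of the remaining counts. No test was run on these shares.

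Replicates of one group differed more in PP than in the spleen. The Bray-Curtis distance between Ighv shares (0% for identical use, 100% for no gene in common) had a median of 12.3% over 9 pairs of spleen libraries of one group, with a range of 10.3% to 15.8%. The 9 pairs in PP had a median of 20.8% and ranged from 15.5% to 33.6%. Pairs of one tissue under different treatments had medians of 13.4% (27 pairs) in the spleen and 25.9% (27 pairs) in PP, and pairs across tissues under one treatment 31.4% (27 pairs). Pairs share libraries and so are not independent, and these distances are given as a description.

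PP Soluble OVA replicate 1 stood apart from its group. Its distances to its group mates were 29.1% and 33.6%, while those 2 libraries were 18.2% apart. Its nearest library was Spleen Soluble OVA replicate 1 at 21.1%. Without it the median within PP groups was 20.1%. In that library Ighv2-9 took 7.38% of Ighv counts against 3.01% and 1.92% in its group mates, Ighv14-3 took 8.36% against 4.07% and 4.26%, and Ighv5-4 took 8.04% against 4.38% and 3.64%. Its own sum of germinal center markers was close to those of its group mates, all 3 lying between 2617 and 2650.0 CPM. Its epithelial panel summed to 176 CPM, against 679 and 627 CPM in its group mates, and its mitochondrial share was 4.97% against 6.02% and 5.51%. Their part in its Ighv use was not tested.

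Single libraries with a high share of one gene were found in other groups too. The largest excess over the median of a group was that of Ighv4-1 in PP PBS replicate 1, at 24.2% against 13.1% and 13.9% in the other libraries, and Ighv4-2 was also highest there (12.0% against 9.17% and 8.67%). Ighv1-9 took 5.86% in PP Soluble OVA replicate 3 and 2.47% and 1.75% in its group mates. Ighv10-1 took 4.33% in PP PBS replicate 2 and 1.17% and 1.37% in the others. The spleen had 2 genes among the 10 with the largest excess. Ighv2-5 took 8.86% in Spleen Soluble OVA replicate 3 against 5.31% and 5.23%, and Ighv11-2 took 6.59% in Spleen OVA NPs replicate 1 against 2.68% and 3.43%.

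Per gene, the coefficient of variation (CV) of CPM between the 3 libraries of a group had a median over the 67 tested Ighv genes of 25.7% to 27.7% in the spleen groups and 43.5% to 55.9% in the PP groups. For 3476 other genes in the middle abundance range of the Ighv genes it was 25.5% to 29.2% in the spleen and 27.8% to 32.0% in PP, and for all 17170 tested genes it was 8.47% to 11.4% and 11.9% to 13.6%. For the 33 Ighv genes within that same abundance range the median CV was 26.1% to 32.7% in the spleen and 43.6% to 53.0% in PP. In the spleen the spread of these 33 genes was therefore about that of other genes of similar abundance, and in PP it was larger. Over all 18 libraries the median biological coefficient of variation was 0.384 for Ighv genes and 0.390 for these 33. It was 0.306 for the other genes of similar abundance and 0.143 for all genes. Among the 30 genes with at least 10 counts in each library, between 9 and 13 had a CV over 2 times that of Poisson counting in the spleen groups and between 20 and 22 in the PP groups.

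**Figure D5:**
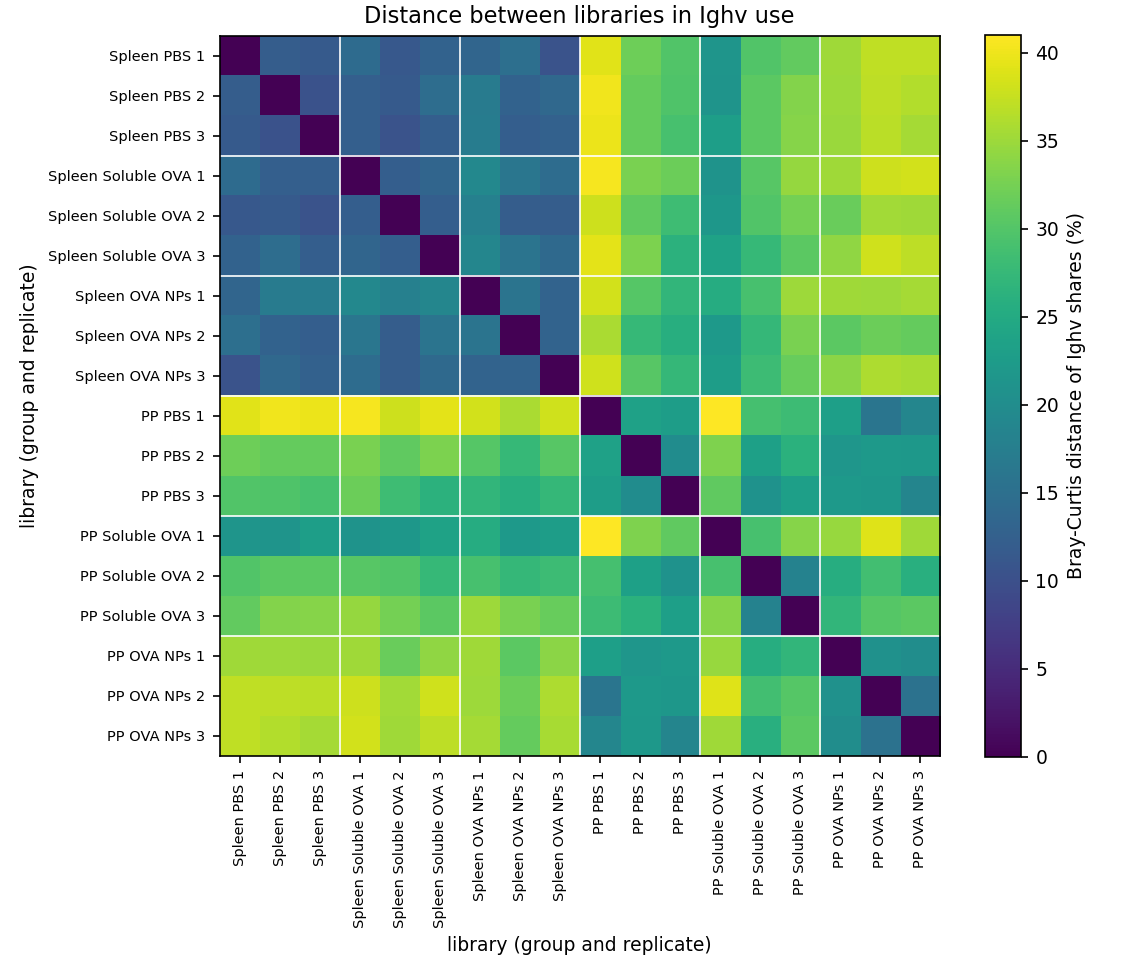
Bray-Curtis distance of Ighv shares in percent (color) between each pair of the 18 libraries (both axes), with white lines between groups of 3. Spleen libraries of one group were 10.3% to 15.8% apart and PP libraries of one group 15.5% to 33.6%, and PP Soluble OVA replicate 1 was nearest to Spleen Soluble OVA replicate 1 at 21.1%.

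Fewer Ighv genes were called between treatments than between tissues. The comparisons of OVA NPs and soluble OVA with PBS share the PBS libraries. Spleen OVA NPs against Spleen PBS called 2 of 59 tested Ighv genes, both higher, against 15% of all genes (8.6% higher and 6.35% lower). These were Ighv4-1, with the spleen CPM given above, at 0.73 ± 0.20 log2 units (edgeR adjusted p = 0.019) and Ighv4-2 at 0.79 ± 0.22 (adjusted p = 0.0221). The OVA NPs libraries lay above all PBS libraries for both genes, which is given as a description only. Leaving out Spleen OVA NPs replicate 2 or Spleen PBS replicate 3 took both calls away, and leaving out Spleen PBS replicate 2 also took that of Ighv4-2. Spleen OVA NPs against Spleen Soluble OVA called 1 of 52 Ighv genes, against 0.238% of all genes (0.137% higher and 0.101% lower), and this was Ighv4-2, higher by 1.46 ± 0.21 log2 units (edgeR adjusted p = 0.00823). That call was lost without Spleen Soluble OVA replicate 1 or 3 or Spleen OVA NPs replicate 2, and with all 18 libraries in one fit. The germinal center marker sum moved between these groups as well, from 108 to 186.25 CPM in Spleen PBS to 395 to 437 in Spleen OVA NPs and 419 to 624 in Spleen Soluble OVA. Its part in these results was not tested.

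The summed Ighv level was lower with soluble OVA than with PBS. The sum was 220.3, 190.2 and 201.7 CPM in Spleen PBS and 149, 179 and 185.6 CPM in Spleen Soluble OVA. It was 199, 199.8 and 198 CPM in PP PBS and 186.0, 193 and 183 CPM in PP Soluble OVA. In both tissues the groups did not overlap, and the mean difference of -22.6 CPM had an exact two-sided permutation p of 0.005, the smallest possible, and an adjusted p of 0.02. This test exchanged libraries in each tissue separately. The labels do not say whether the same mice gave both tissues, and if they did, these p-values would be too small. The adjusted p was 0.06 when Spleen PBS replicate 1 or Spleen Soluble OVA replicate 1 was left out. It was 0.36 when Ighv4-1, the gene with the highest mean share over the 18 libraries, was left out of the sum. OVA NPs libraries had 199, 232 and 231 CPM in the spleen and 274, 217 and 180.1 CPM in PP. They differed from PBS by 20.5 CPM (exact permutation p = 0.2, adjusted 0.48) and from soluble OVA by 43.1 CPM (exact permutation p = 0.02, adjusted 0.06). The tissues had nearly equal sums of 199 and 203 CPM (exact permutation p = 0.67). Light-chain variable genes (163 rows) summed to 681 to 969 CPM in spleen libraries and 681 to 1009 CPM in PP libraries.

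Spleen Soluble OVA against Spleen PBS called 5 of 59 Ighv genes, all lower, against 17.2% of all genes (10.5% higher and 6.72% lower). Ighv11-2 fell by 0.82 ± 0.26, Ighv1-7 by 0.67 ± 0.20, Ighv1-54 by 0.64 ± 0.21 and Ighv2-9 by 0.54 ± 0.15 log2 units, with edgeR adjusted p of 0.0188 to 0.0462. Ighv2-9-1 had 20, 26 and 24 counts under PBS and 5, 10 and 5 under soluble OVA, and passed the filter through PBS alone. The median over the 59 genes was -0.24 log2 units, beside -0.01 over all genes. Each of these 5 calls was lost when at least 3 of the 6 libraries were left out in turn, and DESeq2 called 1 Ighv gene.

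In PP, soluble OVA against PBS called 6 of 53 Ighv genes, 2 higher and 4 lower, against 27.4% of all genes (13.5% higher and 13.9% lower). Ighv11-2 fell by 1.65 ± 0.40, Ighv1-63 by 1.61 ± 0.47, Ighv7-3 by 1.36 ± 0.35 and Ighv3-6 by 0.96 ± 0.24 log2 units (edgeR adjusted p of 0.0135 to 0.0312). Ighv14-3 rose by 1.21 ± 0.34 and Ighv1-14 by 0.92 ± 0.19 (adjusted p of 0.0299 and 0.00762). Ighv1-14 had 8.71, 13.3 and 8.56 CPM in PP PBS and 23.0, 17.3 and 17.8 CPM in PP Soluble OVA, which did not overlap. Leaving out PP PBS replicate 1 left 2 calls and leaving out PP PBS replicate 3 left 3, while that of Ighv1-14 was kept in all 6 such fits.

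PP OVA NPs against PP PBS called 0 of 55 Ighv genes by edgeR, as it did of all genes (0%), with 7 Ighv genes at an unadjusted p under 0.05 and 1 called by DESeq2. PP OVA NPs against PP Soluble OVA called 6 of 56, of which 5 were higher, against 30.1% of all genes (13.8% higher and 16.3% lower). Ighv1-63 was higher by 2.82 ± 0.39, Ighv11-2 by 2.02 ± 0.31, Ighv6-6 by 1.29 ± 0.43 and Ighv10-1 by 1.09 ± 0.35 log2 units, and Ighv5-17 was lower by 0.61 ± 0.20. Ighv1-73 had 98, 40 and 47 counts with OVA NPs and 17, 25 and 8 with soluble OVA. It passed the filter through OVA NPs alone, which favours a difference and the keeping of its call. The calls of Ighv1-63, Ighv1-73 and Ighv11-2 were kept when any single library was left out. Those of Ighv5-17, Ighv6-6 and Ighv10-1 were lost in 6, 5 and 4 of 6 such fits, and that of Ighv5-17 also with DESeq2. Without PP Soluble OVA replicate 1, 10 genes were called. Ighv1-63 had 0.560, 0.980 and 0.836 CPM in PP Soluble OVA and 3.91, 8.49 and 4.28 CPM in PP OVA NPs, which did not overlap. PP PBS libraries had 3.92, 1.47 and 1.74 CPM and lay above all PP Soluble OVA libraries. Other markers moved between these groups too: 5 of 7 tested T cell genes and 3 of 5 myeloid genes were called higher with OVA NPs. The T cell genes summed to 26.5 to 36.5 CPM with OVA NPs and 8.11 to 14.1 CPM with soluble OVA, and the myeloid genes to 135 to 234 CPM and 88.7 to 104 CPM. The mitochondrial share was 9.08% to 9.80% and 4.97% to 6.02%, and germinal center markers were lower with OVA NPs, with 8 of 9 called. The part of these in the Ighv differences was not tested.

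Ighv11-2, the B-1a segment, was called lower with soluble OVA than with PBS in both tissues, less stably in the spleen. The spleen call was lost in 3 of 6 fits that left out 1 library. It was also lost in other settings, which included DESeq2 and all 18 libraries in one fit. The PP call was lost without PP PBS replicate 3. The CPM of Ighv11-2 in the spleen were 9.23, 5.13 and 5.52 under PBS, 2.74, 3.99 and 4.67 under soluble OVA, and 13.1, 6.2 and 7.92 under OVA NPs. In PP they were 3.54, 3.00 and 5.90 under PBS, 0.805, 1.61 and 1.59 under soluble OVA, and 5.2, 5.66 and 5.10 under OVA NPs. In either tissue the soluble OVA libraries lay below those of both other groups. The spleen fall did not differ detectably from the PP fall (interaction -0.85 ± 0.49 log2 units, edgeR adjusted p = 0.355). The spleen difference between OVA NPs and soluble OVA, 1.27 ± 0.30, did not pass (edgeR adjusted p = 0.216), whereas that in PP did (adjusted p = 0.00171). The 7 listed B-1 genes summed to 140.3 to 178 CPM in spleen libraries and 71.8 to 94.5 CPM in PP libraries, and the called genes among them moved both ways. With soluble OVA against PBS, 2 of 6 tested were called higher and 2 lower in the spleen (10.5% and 6.72% of all genes), and 1 of 7 higher and 2 lower in PP (13.5% and 13.9%). With OVA NPs against soluble OVA it was 0 of 6 by edgeR in the spleen, and 3 of 7 higher and 1 lower in PP (13.8% and 16.3%). Ighv12-3, the other B-1a segment, had 0 to 12 counts in spleen libraries. In PP it had 2 counts in PP Soluble OVA replicate 1 and 0 in the other 8 libraries, where 3 counts would be a share of 0.0505% to 0.11% of Ighv counts. Intervals and floors of this kind cover counting error only.

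The remaining segments with named histories gave low values. Ighv7-1 had 0.333, 0.440 and 0.205 CPM in PP PBS, 0.280, 1.06 and 0.334 in PP Soluble OVA, and 1.93, 2.64 and 0.911 in PP OVA NPs. OVA NPs libraries lay above the PBS libraries, which had 8, 6 and 4 counts, but the edgeR adjusted p was 0.224. Ighv1-72 had 0 to 10 counts per library. Ighv5-2 had 5 to 47 counts, and none of its 9 comparisons between groups passed (edgeR adjusted p of 0.112 to 0.897).

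Whether a treatment acted differently in the tissues was tested for each gene as an interaction. For soluble OVA against PBS 1 of 65 Ighv genes passed, against 6.84% of all genes, and this was Ighv1-14 (1.11 ± 0.24 log2 units, edgeR adjusted p = 0.0116). Its change was -0.18 ± 0.11 in the spleen and 0.92 ± 0.19 in PP. For OVA NPs against PBS 0 of 62 passed by edgeR, against 4.42% of all genes.

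The constant regions joined to these segments changed with tissue and treatment. Ighm, which encodes the IgM heavy chain, had 3134 to 4319 CPM in spleen libraries and 1420 to 2392 in PP libraries, and was lower in PP by 0.94 ± 0.07, 1.09 ± 0.08 and 0.85 ± 0.09 log2 units under PBS, soluble OVA and OVA NPs (edgeR adjusted p of 7.26e-06, 4.32e-06 and 7.13e-05). With soluble OVA against PBS it fell by 0.32 ± 0.08 in the spleen and by 0.47 ± 0.08 in PP (edgeR adjusted p of 0.0107 and 0.00238). Ighd, which encodes the IgD heavy chain of resting B cells, fell by 1.48 ± 0.13 in PP with soluble OVA (adjusted p = 1.96e-04). Igha, which encodes IgA, the antibody of the gut, had 4.87 to 8.97 CPM in the spleen and 395 to 1389 CPM in PP. Of the 8 listed constant regions 4 were called higher in PP under each treatment, and 3, 4 and 2 lower under PBS, soluble OVA and OVA NPs, beside 25.5%, 26.7% and 22% higher and 20.1%, 24.3% and 15.1% lower of all genes. The 8 were Ighm, Ighd, Igha, Ighe and the IgG regions Ighg1, Ighg2b, Ighg2c and Ighg3.

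Genes that rearrange or mutate the segments were listed as well (Rag1, Rag2, Dntt, Ung, Msh6, Polh, Xrcc4, Lig4 and Dclre1c). In the spleen 4 of 9 tested were called higher with OVA NPs and 4 of 8 with soluble OVA against PBS, and in PP 4 of 7 with soluble OVA against PBS, beside 8.6%, 10.5% and 13.5% of all genes. These were Msh6, Polh, Ung and Lig4 in each case. Between tissues 4 of 8 tested were called higher in PP under each treatment, beside 25.5%, 26.7% and 22% of all genes. Under PBS, soluble OVA and OVA NPs 1, 2 and 1 were called lower, beside 20.1%, 24.3% and 15.1%. In PP, OVA NPs against soluble OVA called 2 of 8 higher and 4 lower, beside 13.8% and 16.3%. Polh, a polymerase that copies across damaged DNA and adds mutations to variable segments, was chosen as an example after its values were seen. It had 21.6, 24.5 and 27.9 CPM in Spleen PBS and 94.5, 83.5 and 70.2 CPM in PP PBS, and 163, 162 and 152 CPM in PP Soluble OVA. Its values of 56.1, 82.9 and 84.3 CPM in PP OVA NPs overlapped those of PP PBS, whereas PP Soluble OVA lay above both. The 9 listed germinal center markers (Bcl6, Rgs13, S1pr2, Mef2b, Fas, Gcsam, Mybl1, Basp1 and Nuggc) summed to 1457 to 1760 CPM in PP PBS, 2617 to 2650.0 in PP Soluble OVA and 1138 to 1748 in PP OVA NPs, and all 9 were called higher in PP than in the spleen under each treatment, beside 25.5%, 26.7% and 22% of all genes. Of 9 tested plasma cell genes 8, 7 and 6 were called higher in PP, beside the same shares. The part of these cell types in the use of any Ighv gene was not tested.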

How the data were processed

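Bulk RNA-Seq was done on poly(A) RNA of B cells from 18 libraries, 3 in each of 6 groups taken from the sample labels. Per the labels, reads were trimmed with cutadapt 2.3 and aligned with STAR 2.7.8a to GRCm38. The authors deposited RSEM 1.3.3 expected counts per gene, with no column of other samples (0). Counts were rounded and tested with edgeR 4.0.16 (quasi-likelihood, TMM scaling, filterByExpr with a minimum count of 10) on all genes passing the filter, one fit for the groups of each comparison, without the replicate number, which did not pair samples. CPM uses TMM-scaled totals. Where groups are said not to overlap, the share of all genes that did so is not given, so this only describes the libraries. Calls needed a log2 change beyond 0.25 in either direction with an adjusted p below 0.05, and interactions the adjusted p alone. Summed levels, effective numbers and family shares were compared by exact two-sided permutation tests that exchanged libraries within the other factor. These tests treat spleen and PP libraries as independent, although the labels do not say whether the same mice gave both. Named genes were the 15 most used, those called (or the 5 largest in each direction where over 10 were called), the 10 with the largest single-library excess and segments of textbook role. The members and lists were chosen with earlier results of these data known. Some listed marker and pathway genes are not reported here. The statistics were tested on simulated data. Alternatives are given in the closing section. Hypermutated or BALB/cJ reads that did not match the C57BL/6 reference would be lost to alignment to an unknown extent.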

Additional observations from a re-analysis of the deposited data

Results flagged for a closer look

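The effect of soluble OVA against PBS on Ighv1-14 differed between the tissues by 1.11 log2 units in edgeR's interaction test. The difference itself was tested (adjusted p = 0.0116), and the call was kept when any one of the 12 libraries was left out. Over all alternatives the adjusted p ranged from 2.61e-04 to 0.137, the highest when all 18 libraries were fitted together.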

How the results depend on the processing

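Of 68 gene calls, 0 changed direction under any alternative and 28 were kept when each library was left out in turn. Counts of called Ighv genes moved as follows. Without the filter on low counts there were 6 for Spleen OVA NPs against Spleen PBS, 6 for Spleen OVA NPs against Spleen Soluble OVA and 2 for PP OVA NPs against PP PBS. DESeq2 gave 1 for Spleen Soluble OVA against Spleen PBS, 3 for Spleen OVA NPs against Spleen Soluble OVA, 1 for PP OVA NPs against PP PBS, 12 for PP OVA NPs against PP Soluble OVA and 3 for the interaction of soluble OVA. With all 18 libraries in one fit, which shares one spread between tissues, there were 0 for each spleen comparison and for the interaction of soluble OVA, 12 for PP Soluble OVA against PP PBS and 18 for PP OVA NPs against PP Soluble OVA. Same-numbered libraries did not deviate together. The replicate block gave 2 for Spleen OVA NPs against Spleen Soluble OVA and 2 for PP Soluble OVA against PP PBS (Ighv11-2 and Ighv1-14), moved the adjusted p of the summed level for soluble OVA against PBS (-22.6 CPM) to 0.0938, and left the other counts within 1.5 times.

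Leaving out 1 library gave 0 to 4 calls for Spleen OVA NPs against Spleen PBS, 0 to 6 for Spleen Soluble OVA against Spleen PBS, 0 to 1 for Spleen OVA NPs against Spleen Soluble OVA, 2 to 6 for PP Soluble OVA against PP PBS and 5 to 10 for PP OVA NPs against PP Soluble OVA. Between tissues it gave 14 to 25 under PBS, 6 to 15 under soluble OVA and 10 to 22 under OVA NPs, and for the interactions 0 to 1 (OVA NPs) and 1 to 3 (soluble OVA). Leaving out 1 library moved the summed level by -3.60 to 12.0 CPM for PP against Spleen (below 0 without PP OVA NPs replicate 1), 8.0 to 31.3 for OVA NPs against PBS, -26.2 to -17.0 for soluble OVA against PBS and 30.6 to 53.9 for OVA NPs against soluble OVA. The effective number ranged from -0.91 to 1.47 for OVA NPs against PBS. The most used share ranged from -1.66 to 1.11 percentage points for OVA NPs against PBS and from -2.58 to 0.195 for soluble OVA against PBS, each turned by PP PBS replicate 1. The Ighv2 share for PP against Spleen ranged from -2.65 to -1.90.

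Without Ighv4-1, the gene with the highest mean share, the summed level differed by -19.9 CPM for PP against Spleen and -16.4 for soluble OVA against PBS. The most used remaining share then differed by 1.09 for soluble OVA against PBS and -2.13 for OVA NPs against soluble OVA. Scaling to library totals gave -3.20 CPM for PP against Spleen, and genes with 10 counts in every library -16.9 CPM for soluble OVA against PBS. Without Ighv4, chosen after the values were seen, the PP minus Spleen differences were -2.07 for the effective number, 0.654 for the most used share, 0.281 for Ighv1 and 1.48 for Ighv2, and the most used share differed by 3.09 for soluble OVA against PBS and -4.49 for OVA NPs against soluble OVA. The CV of the 30 best counted genes was 13.1%, 18.5% and 22.9% in the spleen groups (PBS, soluble OVA, OVA NPs) and 29.2%, 35.3% and 31.4% in PP, and with shares in place of CPM 14.6%, 15.6%, 19.4%, 29.2%, 35.1% and 26.1%. Without PP Soluble OVA replicate 1 the median distance within PP groups was 20.1%. The cause of these changes was not tested. Ighv counts of 2727 to 5945 per library limit what can be seen for genes below about 10 counts.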
